A study of Mus musculus with 6 samples.

Results

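The genes described here encode the structural proteins of the extracellular matrix and basement membrane: collagens, laminins, matrix proteoglycans and a set of associated glycoproteins. Members were chosen by name alone, as every probe set whose single annotated symbol is a collagen chain (Col, digits, a, digits), a laminin chain (Lama, Lamb or Lamc and a digit) or one of 18 fixed names, from decorin to thrombospondin 1. The rule found 81 of the 12422 probe sets used, which read 56 of the 8251 named genes: 31 collagen genes, 9 laminin genes and 16 of the 18 fixed names. Fbn1 and Thbs1 were not analysed here, and the 1 probe set annotated to Thbs1 carries a second symbol. A gene with several probe sets, as 21 members have, was read from its brightest one (by mean log2 signal across the 6 arrays).

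The samples were whole uteri of C57Bl/6 female mice whose ovaries had been removed 7 days before sacrifice, which takes away most circulating estrogen. The mice received 1 subcutaneous injection of vehicle, 24 h before sacrifice, or of estradiol (E2, the main ovarian estrogen) at 0.05 µg per mouse, at 1, 3, 6, 12 and 24 h ahead of it. Uteri were pooled before RNA extraction and each of the 6 groups was read on 1 Affymetrix U74Av2 array, so there are no replicates, no difference below was tested, and precision is limited by the single array of each group. The labels give an age of 10 to 11 weeks, although they also state arrival at 10 weeks and 3 weeks of acclimation, and they name 10 mice without saying whether per group or in all. The vehicle array matches only the 24 h group in time since injection, so at the earlier times hours since injection and estradiol cannot be told apart.

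Fibrillar collagens (types I, III and V) are the tensile rods of the uterine stroma and of the muscle layer, and collagen VI forms beaded filaments between fibrils and cells. Collagen IV, laminins, nidogen and perlecan build the basement membranes under epithelium, around smooth muscle cells and around vessels. Small leucine-rich proteoglycans such as decorin bind the surface of collagen fibrils and control their diameter, and lysyl oxidase cross-links collagen and elastin. Estradiol is known to cause oedema and growth of the rodent uterus within a day.

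Signals are the authors' MAS5 values, rescaled to a common trimmed mean, and a signal under 142.8 units (the 40th percentile of all values) counts as below the floor. Of the 56 genes, 50 reached the floor somewhere and 36 on all 6 arrays, while Col2a1, Col4a3, Col4a4, Col10a1, Col19a1 and Col22a1 were below it throughout. The array labelled 3 h stood apart. Across the 56 genes its Spearman correlation with the other 5 arrays was 0.652 to 0.731, against 0.935 to 0.989 for the 10 pairs among those 5, and across all probe sets the values were 0.843 to 0.857 against 0.929 to 0.968. Markers of uterine epithelium were nearly absent from it, with 2 of 12 at or above the floor and a summed signal of 922, against 10752 to 16888 on the other arrays. The defining epithelial keratins Krt8, Krt18 and Krt19 had 107, 64.9 and 5.2 units there. Skeletal muscle markers summed to 78001 on it, against 2409 to 4124 elsewhere, so this array went against its label as uterus, and its values are given apart from the other times.

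At 1 h, 0 of the 56 genes were at least 2-fold higher than vehicle and 1 was lower, where all named genes had 0.679% higher and 0.279% lower. At 6 h, 4 genes were higher and 11 lower (7.14% and 19.6% of 56), against 5.04% and 6.64% of all named genes. At 12 h, 6 were higher and 6 lower (10.7% each), against 4.9% and 5.51%. At 24 h, 8 were higher and 3 lower (14.3% and 5.36%), against 2.71% and 2.81%. The balance thus lay on the lower side at 6 h and on the higher side at 24 h, and the median log2 ratio of the 56 genes was -0.05, -0.14, 0.00 and 0.01 at 1, 6, 12 and 24 h, with 0.00 for all named genes at each time. Genes below the floor on both arrays enter these medians as 0. Over all genes measured on both arrays the median was -0.01, -0.04, -0.04 and -0.04 at those times. Matrix genes are brighter than most, and among genes whose mean signal over the arrays reached 352.65 units (the 60th percentile) the share of the 37 matrix genes was 10.8% higher and 24.3% lower at 6 h, with 7.65% and 9.35% for the 3988 such genes on the array. At 12 h it was 16.2% higher and 10.8% lower, with 7.62% and 7.7% for the 3988, and at 24 h 21.6% higher and 5.41% lower, with 3.46% and 3.69%. At 1 h none of the 37 was higher or lower, with 0.752% and 0.15% for the 3988. The brightness filter used the mean log2 signal of all 6 arrays, so at every time it was not independent of the values counted. Vcan passed it with 295 units in vehicle, 129 at 6 h and 693 at 12 h, while the 3 h array gave 550. Vcan is counted in these shares as lower at 6 h and higher at 12 h. A filter without the array being counted was not tested. In all, 11 matrix genes were higher and 11 lower at 1 or more of 6, 12 and 24 h, Vcan counting on both sides, and 35 were under 2-fold at all 3 times. These joint counts were not taken for all named genes, so they have no share to be set against.

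**Figure D1:**
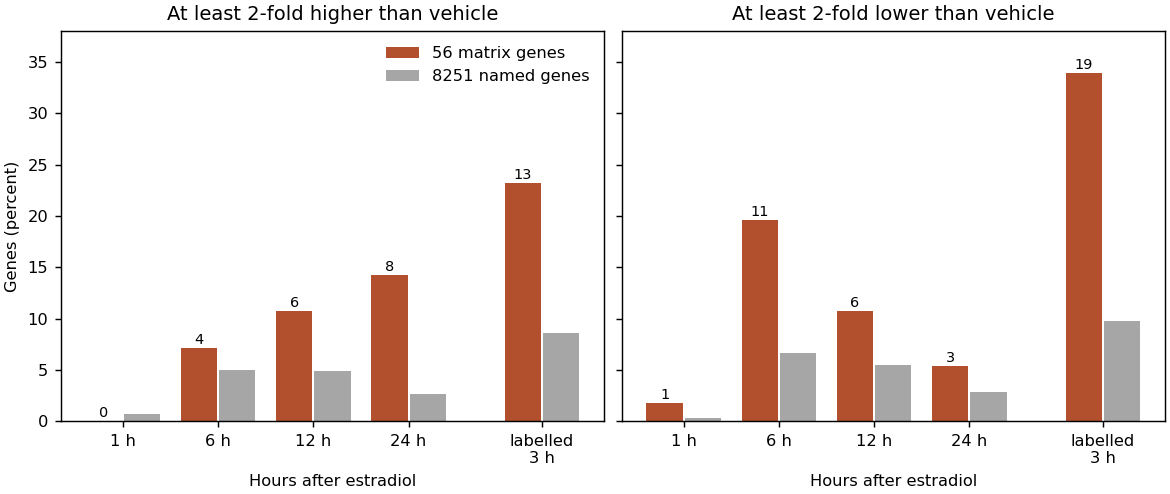
Share of genes (percent) at least 2-fold higher (left) or lower (right) than vehicle at each time, for the 56 matrix genes (brown, with their number above each bar) and all 8251 named genes (grey), 1 array per group. Lower matrix genes numbered 11 at 6 h and 3 at 24 h, and higher ones 4 at 6 h and 8 at 24 h.

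**Figure D2:**
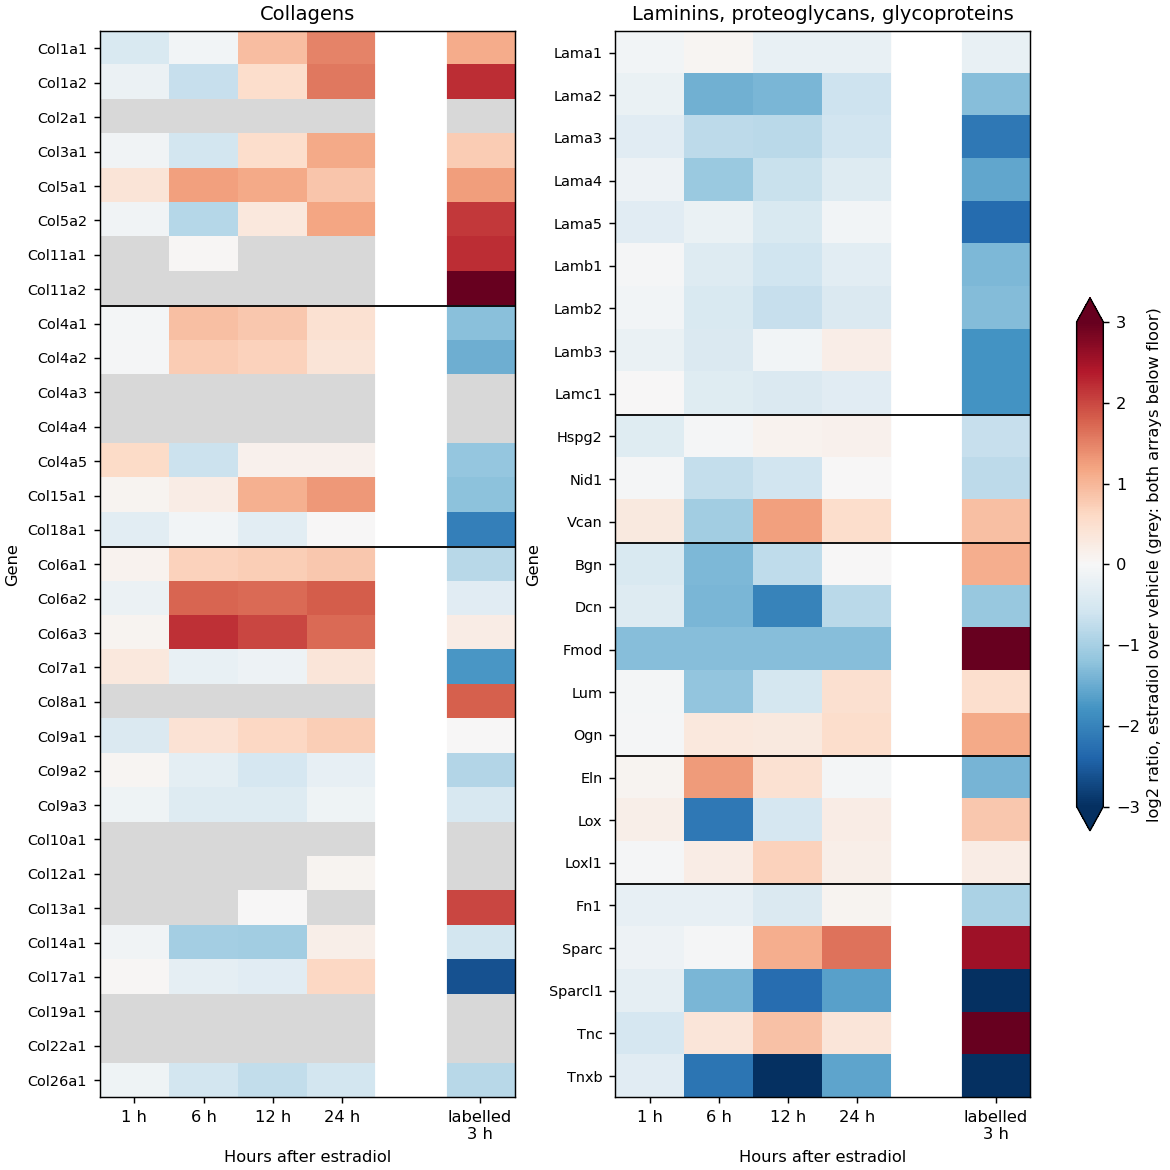
Log2 ratio of estradiol over vehicle for each of the 56 genes at 1, 6, 12 and 24 h, with the array labelled 3 h set apart. Colours end at 3 and -3, black lines separate the functional groups, grey cells are below the floor on both arrays, and a ratio with 1 array below the floor is a bound. Collagen VI is red from 6 h on, collagens I, III and V mostly from 12 h on, and most laminin cells are blue.

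The 3 chains of collagen VI, which assemble as 1 trimer, were all above vehicle from 6 h on, and Col6a3 and Col6a2 had the highest ratios to vehicle of the 56 genes at 6 h. Col6a3 had a signal of 4721 in vehicle and 4973, 21543, 18789 and 15432 at 1, 6, 12 and 24 h. It was 4.56-fold higher than vehicle at 6 h, 3.98-fold at 12 h and 3.27-fold at 24 h, so that its highest value came at 6 h. Col6a2 had 4656 in vehicle and 4100, 15637, 15094 and 16468 at 1, 6, 12 and 24 h, which is 3.36-fold, 3.24-fold and 3.54-fold higher at the last 3 times. These 2 genes were the only matrix genes at least 2-fold higher at 6, 12 and 24 h alike. Col6a1 had 9203 in vehicle and 9841, 14838, 15265 and 16171 at 1, 6, 12 and 24 h, and stood 1.61-fold, 1.66-fold and 1.76-fold higher, short of 2-fold. Its second probe set had log2 ratios of 1.15, 1.28 and 1.33 at those times, past 2-fold at each. On all 3 chains the 4 arrays up to 12 h split into a low pair (vehicle and 1 h) and a high pair (6 and 12 h). Col6a1 and Col6a2 are neighbours on chromosome 10, with no protein-coding gene starting between them in RefSeq, while Col6a3 lies on chromosome 1.

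The promoter windows of the 2 chains furthest from vehicle are shown here, since these genes were high together from 6 h on. Each window runs from 250 bases before to 50 after the RefSeq start (GRCm38.p6), 5′ to 3′ on the strand of the gene. Capitals mark any match, on either strand, to 6 motifs: the estrogen response element GGTCANNNTGACC, its shorter core GGTCA (which the full element holds at both ends), the GC box GGGCGG, the CCAAT box CCAAT, the TATA box TATAAA and the AP-1 site TGANTCA. For Col6a2, which has 2 annotated starts, the window of the upstream start is given (chr10:76623581-76623880, minus strand), and for Col6a3 it is chr1:90843922-90844221, minus strand.
Col6a2: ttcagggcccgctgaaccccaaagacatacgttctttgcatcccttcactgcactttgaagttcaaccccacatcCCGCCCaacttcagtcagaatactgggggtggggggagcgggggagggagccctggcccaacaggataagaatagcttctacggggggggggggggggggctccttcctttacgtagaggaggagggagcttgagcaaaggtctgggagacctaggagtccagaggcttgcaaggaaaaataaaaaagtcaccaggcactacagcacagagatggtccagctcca
Col6a3: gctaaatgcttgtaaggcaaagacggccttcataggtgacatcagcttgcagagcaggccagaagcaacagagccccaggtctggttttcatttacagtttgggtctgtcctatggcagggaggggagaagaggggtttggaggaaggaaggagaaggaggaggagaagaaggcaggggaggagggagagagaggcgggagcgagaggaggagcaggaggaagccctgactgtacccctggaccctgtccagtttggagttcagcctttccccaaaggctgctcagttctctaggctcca
The Col6a2 window holds 1 GC box and the Col6a3 window none of the 6 motifs. The window of the other Col6a2 start (chr10:76623355-76623654, minus strand), not printed, holds 3 GC boxes and 1 GGTCA core. A match describes letters only, and none of these windows was tested for binding.

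Of the basement membrane collagens, the paired chains of collagen IV were higher than vehicle from 6 h on without reaching 2-fold. Col4a1 had 3276 in vehicle and 3171, 6131, 5766 and 4476 at 1, 6, 12 and 24 h. Col4a2 had 3428, 3340, 5831, 5515 and 4450 in the same order. The 2 genes thus ran closely together, at 1.87-fold and 1.70-fold higher at 6 h, 1.76-fold and 1.61-fold at 12 h and 1.37-fold and 1.30-fold at 24 h, with the furthest value for both at 6 h. Col4a5 ended near vehicle (log2 ratios of -0.65 at 6 h and 0.13 at 24 h), and Col4a3 and Col4a4 were below the floor on every array.

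Col4a1 and Col4a2 are neighbours on opposite strands, and their RefSeq starts lie 21 bases apart with the first bases of each gene overlapping those of the other. The 2 windows share 78 bases. They are printed because the pair's values ran in parallel (Col4a1 at chr8:11312777-11313076, minus strand, Col4a2 at chr8:11312555-11312854, plus strand), with capitals as above.
Col4a1: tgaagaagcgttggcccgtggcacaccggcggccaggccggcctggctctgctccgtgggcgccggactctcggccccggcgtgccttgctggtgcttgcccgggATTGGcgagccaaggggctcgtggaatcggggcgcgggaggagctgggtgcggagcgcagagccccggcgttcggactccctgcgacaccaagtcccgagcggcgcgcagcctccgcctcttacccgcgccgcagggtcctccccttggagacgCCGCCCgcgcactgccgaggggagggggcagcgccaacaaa
Col4a2: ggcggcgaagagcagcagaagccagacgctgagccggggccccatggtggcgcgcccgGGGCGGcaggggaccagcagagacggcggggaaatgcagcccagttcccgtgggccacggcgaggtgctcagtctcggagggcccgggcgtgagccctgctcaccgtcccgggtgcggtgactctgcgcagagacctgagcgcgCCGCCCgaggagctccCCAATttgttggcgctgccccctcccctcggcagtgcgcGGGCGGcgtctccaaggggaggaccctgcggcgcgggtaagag
The Col4a1 window holds 1 GC box and 1 CCAAT box, and the Col4a2 window 3 GC boxes and 1 CCAAT box. The Col4a1 GC box lies in the stretch that both windows share, and is 1 of the 3 of Col4a2 read on the other strand.

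Col15a1, a collagen of the zone between basement membrane and stroma, took longer. It had 1222 in vehicle and 1297, 1434, 2567 and 3006 at 1, 6, 12 and 24 h, which is 1.17-fold higher at 6 h, 2.10-fold at 12 h and 2.46-fold at 24 h. Its relative Col18a1, the source of endostatin, ran from 1584 to 1991 on all 5 arrays, at most 1.25-fold below vehicle.

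The fibrillar collagens of interstitial connective tissue fell into an early and a late pattern. Col5a1, whose chain helps to start fibrils, was the early one, with 1303 in vehicle and 1700, 3053, 2846 and 2336 at 1, 6, 12 and 24 h. It was 2.34-fold higher at 6 h, 2.18-fold at 12 h and 1.79-fold at 24 h, and its second probe set had log2 ratios of 1.76, 1.89 and 1.74. The collagen I chains were late. Col1a1 had 10341 in vehicle and 7476, 9712, 19757 and 29086 at 1, 6, 12 and 24 h, and was 1.91-fold higher at 12 h and 2.81-fold at 24 h. Col1a2 had 4359 in vehicle and 3867, 2679, 6297 and 13098 at 1, 6, 12 and 24 h. It was 1.63-fold lower than vehicle at 6 h, 1.44-fold higher at 12 h and 3.00-fold higher at 24 h, so the 24 h array exceeded the 6 h array by 4.89-fold.

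Collagen III and the second collagen V chain followed the same course. Col3a1 had 6285 in vehicle and 5813, 4324, 9122 and 13889 at 1, 6, 12 and 24 h, 2.21-fold higher at 24 h. Col5a2 had 2293, 2146, 1262, 2854 and 5240 in the same order, 1.82-fold lower at 6 h and 2.29-fold higher at 24 h. These genes are neighbours on chromosome 1. At 24 h, 4 of the 8 fibrillar collagen genes stood 2-fold or more above vehicle and 0 below, against 2.71% and 2.81% of all named genes. The other 4 were Col5a1 and 3 genes below the floor at vehicle and 24 h (Col2a1, Col11a1, Col11a2). The median over the 8 was -0.05, 0.42 and 0.99 at 6, 12 and 24 h, and the 6 h value was 0.00 with arrays scaled to the same median.

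The 24 h calls of both collagen I chains rest on 1 of their 2 probe sets. The second probe set of Col1a1 had a log2 ratio of 0.52 at 24 h, where the brightest had 1.49, and that of Col1a2, an element whose suffix marks a relaxed probe selection, had 0.07 where the brightest had 1.59. For Col3a1 both further probe sets were higher than the brightest, at 1.78 and 1.71 against 1.14. With quantile normalization Col3a1 stood at 0.90 at 24 h, under 2-fold.

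Sparc, a secreted glycoprotein that binds fibrillar collagen, followed the late collagens. It had 2335 in vehicle and 2103, 2276, 4937 and 7234 at 1, 6, 12 and 24 h, level with vehicle at 6 h, 2.11-fold higher at 12 h and 3.10-fold at 24 h. The windows of Col1a2 (chr6:4505368-4505667, plus strand) and Sparc (chr11:55420031-55420330, minus strand) are given as the 2 late genes with the highest folds at 24 h that have one.
Col1a2: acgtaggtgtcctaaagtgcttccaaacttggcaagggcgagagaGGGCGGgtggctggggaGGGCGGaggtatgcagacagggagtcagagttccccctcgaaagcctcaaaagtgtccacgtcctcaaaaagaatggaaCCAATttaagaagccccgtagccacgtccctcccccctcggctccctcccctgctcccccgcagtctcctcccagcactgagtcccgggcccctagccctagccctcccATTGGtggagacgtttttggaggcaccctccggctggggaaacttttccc
Sparc: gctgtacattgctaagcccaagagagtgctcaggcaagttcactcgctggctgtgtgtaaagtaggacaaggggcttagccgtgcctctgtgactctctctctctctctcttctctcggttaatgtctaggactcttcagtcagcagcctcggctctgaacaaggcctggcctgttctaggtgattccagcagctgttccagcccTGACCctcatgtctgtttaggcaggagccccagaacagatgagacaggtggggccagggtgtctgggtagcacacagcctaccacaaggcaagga
The Col1a2 window has 2 GC boxes and 2 CCAAT boxes. The Sparc window has neither, and holds 1 core motif of the estrogen response element.

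**Figure D3:**
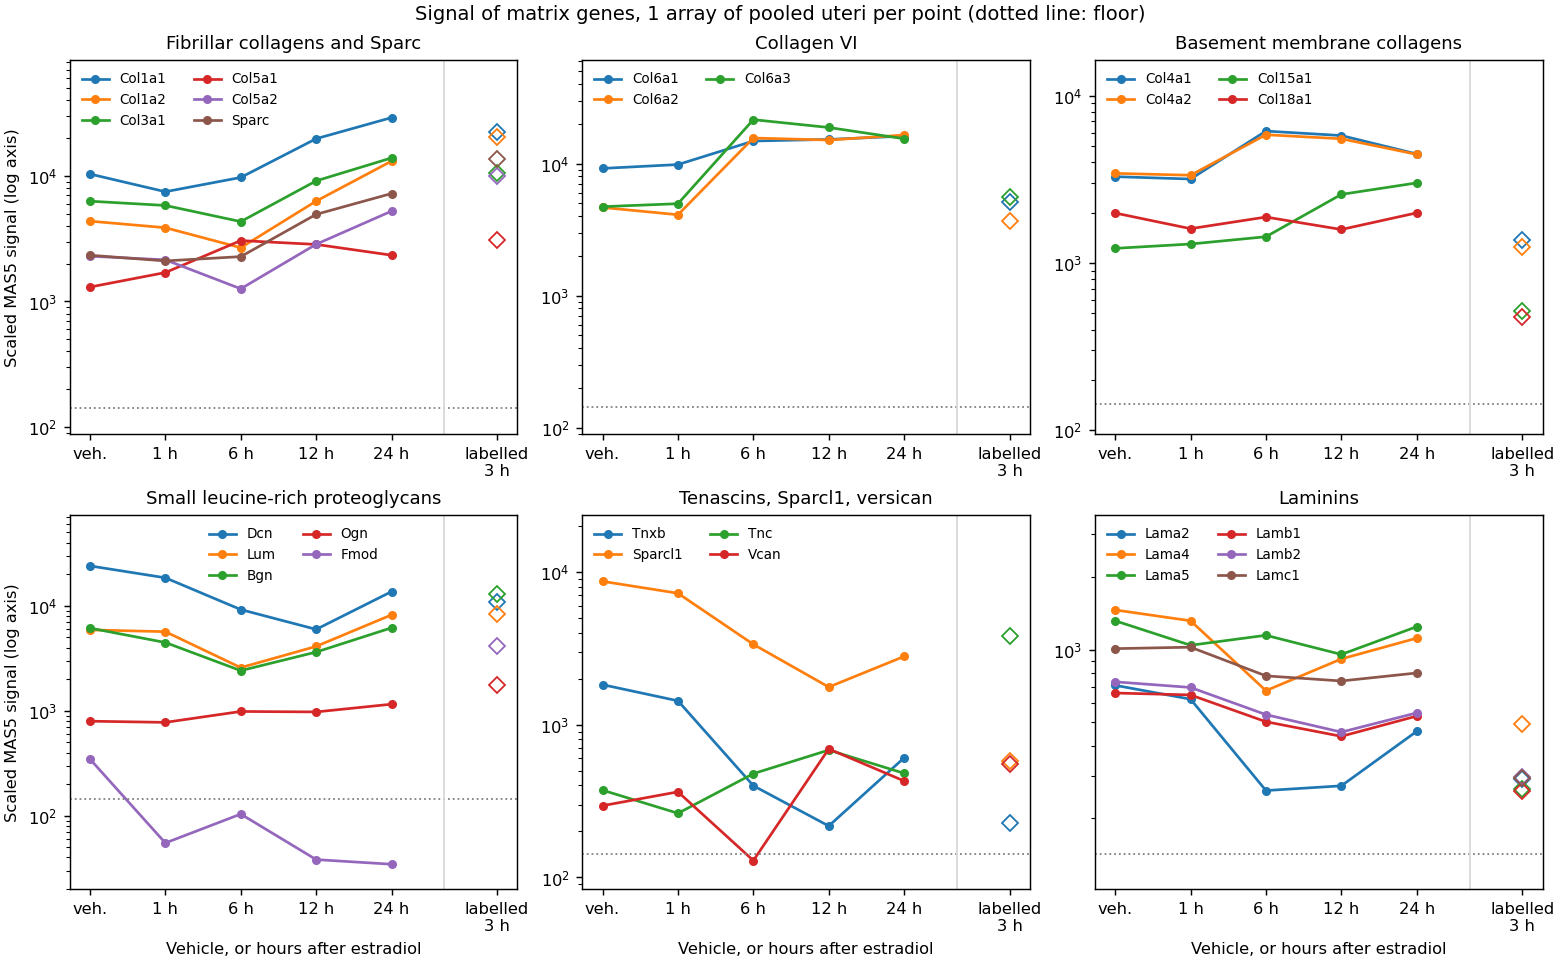
Scaled MAS5 signal (log axis) of matrix genes in 6 groups, in vehicle and 1, 6, 12 and 24 h after estradiol (joined points, 1 array each) and on the array labelled 3 h (open diamonds, set apart). The dotted line is the floor of 142.8. Collagen VI steps up at 6 h, Col1a1, Col1a2, Col3a1, Col5a2 and Sparc are highest at 24 h among the joined points, and Dcn, Tnxb and Sparcl1 are lowest at 12 h.

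Among the remaining collagens, none other than Col6a2 and Col6a3 was 2-fold higher at 1, 6, 12 or 24 h. Col14a1, a fibril-associated collagen, had 347 in vehicle and 325, 171, 170 and 391 at 1, 6, 12 and 24 h. It was 2.03-fold lower at 6 h and 2.04-fold lower at 12 h, and back at 1.13-fold above vehicle at 24 h. Both calls were marginal. With arrays scaled to the same median, 10 matrix genes were lower at 6 h and 5 at 12 h, and Col14a1 was under 2-fold at both times. Col17a1, a transmembrane collagen of hemidesmosomes, and Col7a1, the anchoring fibril collagen, stood 1.54-fold and 1.29-fold above vehicle at 24 h, and Col9a1 1.67-fold. Col9a2, Col9a3 and Col26a1 were below vehicle at 6, 12 and 24 h, by at most 1.67-fold.

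No laminin gene was 2-fold higher at any of these times, and the group lay mostly below vehicle. Of the 9, 8 were below vehicle at 6 h, 9 at 12 h and 8 at 24 h, counts that were the same under both other scalings, with medians of -0.43, -0.60 and -0.33. All genes measured on both arrays had a median of -0.04 at each of these times. These counts hold differences of any size, and the ratios of Lama1 at 12 and 24 h are bounds, since it was below the floor there. Lama2, the alpha chain of muscle basement membranes, had 711 in vehicle and 623, 261, 273 and 459 at 1, 6, 12 and 24 h. It was 2.73-fold lower at 6 h, 2.61-fold at 12 h and 1.55-fold at 24 h. Lama4, an alpha chain of vessels and mesenchyme, had 1459 in vehicle and 1316, 676, 915 and 1115 at 1, 6, 12 and 24 h, 2.16-fold lower at 6 h. The chains shared by many laminins differed less: Lamb1 was 1.51-fold, Lamb2 1.61-fold and Lamc1 1.36-fold lower at 12 h. The epithelial chain gene Lama5 was 1.38-fold and Lama3 1.76-fold lower at that time.

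Of the other basement membrane components, perlecan (Hspg2), a heparan sulfate proteoglycan, had 1664 to 1886 units at 6 to 24 h, against 1715 in vehicle. Nidogen 1 (Nid1), which links laminin to collagen IV, had 245 in vehicle and 237, 149, 164 and 248 at 1, 6, 12 and 24 h, 1.65-fold lower at 6 h. Versican (Vcan), a large hyaluronan-binding proteoglycan, lay on both sides of vehicle. It had 295 in vehicle and 363, 129, 693 and 428 at 1, 6, 12 and 24 h, which is at least 2.06-fold lower at 6 h, where it was below the floor, and 2.35-fold higher at 12 h. Its signals were low, and neither call was left with the floor at the 60th percentile.

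Small leucine-rich proteoglycans had the lowest levels relative to vehicle at 6 h of the 8 groups, with 4 of 5 at least 2-fold lower and a median of -1.28. Of all named genes, 6.64% were lower at 6 h. The median is the ratio of Fmod, a bound set by the floor, and Fmod is also 1 of the 4. Decorin (Dcn) had 23991 in vehicle and 18485, 9206, 5963 and 13656 at 1, 6, 12 and 24 h. It was 2.61-fold lower at 6 h, 4.02-fold at 12 h and 1.76-fold at 24 h, with its lowest value at 12 h. Lumican (Lum), the neighbour of Dcn on chromosome 10, had 5896 in vehicle and 5669, 2577, 4106 and 8201 at 1, 6, 12 and 24 h, 2.29-fold lower at 6 h and 1.39-fold higher at 24 h. Biglycan (Bgn) had 6132, 4470, 2411, 3625 and 6171 in the same order, 2.54-fold lower at 6 h and level with vehicle at 24 h. Lum and Bgn were thus lowest at 6 h and Dcn at 12 h, and at 24 h Dcn alone of the 3 was still below vehicle.

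Osteoglycin (Ogn) did not share this course, with 796 in vehicle and 775, 985, 975 and 1155 at 1, 6, 12 and 24 h. Fibromodulin (Fmod) had 346 in vehicle and 55.0, 104, 38.2 and 34.5 at 1, 6, 12 and 24 h, all below the floor, so it was at least 2.42-fold lower at each time. It was the 1 gene lower at 1 h, its second probe set was below the floor on every array, and the call was lost with the floor at the 60th percentile and with the median of both probe sets, so it rests on 1 dim element.

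In the elastic fibre group, elastin and the enzyme that cross-links it lay on opposite sides of vehicle at 6 h. Elastin (Eln) had 2571 in vehicle and 2724, 6194, 3513 and 2470 at 1, 6, 12 and 24 h, 2.41-fold higher at 6 h and level with vehicle at 24 h. Its second probe set had a log2 ratio of 1.02 at 6 h. Lysyl oxidase (Lox) had 728 in vehicle and 828, 164, 514 and 856 at 1, 6, 12 and 24 h, 4.45-fold lower at 6 h and 1.18-fold higher at 24 h. The 24 h array exceeded the 6 h array by 5.23-fold for Lox, the widest such gap among the 56 genes on their brightest probe sets. The second Lox probe set had 243 in vehicle and was below the floor on the other 5 arrays, at least 1.70-fold lower at each time, 24 h included, so it does not show the return to vehicle. Loxl1, a related oxidase needed for elastic fibre renewal, was 1.60-fold higher at 12 h and under 1.2-fold from vehicle at 6 and 24 h.

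Among the glycoproteins, 2 genes were far below vehicle at all 3 later times. Tenascin X (Tnxb), whose loss in people causes a form of Ehlers-Danlos syndrome with lax skin, had 1824 in vehicle and 1430, 398, 217 and 606 at 1, 6, 12 and 24 h. It was 4.58-fold lower at 6 h, 8.40-fold at 12 h and 3.01-fold at 24 h, and its second probe set had log2 ratios of -1.51, -2.88 and -1.41. Both Tnxb probe sets carry a suffix that marks related transcripts, so Tnxb could not be read without such probe sets. Sparcl1 (hevin), the close relative of Sparc, had 8646 in vehicle and 7228, 3348, 1760 and 2791 at 1, 6, 12 and 24 h, 2.58-fold, 4.91-fold and 3.10-fold lower at the last 3 times. Sparc and Sparcl1 thus stood 3.10-fold above and 3.10-fold below vehicle at 24 h. Tenascin C (Tnc), found in remodelling tissue, had 372 in vehicle and 263, 478, 681 and 480 at 1, 6, 12 and 24 h, 1.83-fold higher at 12 h, while Tnxb was lowest at that time. Fibronectin (Fn1), a ligand of cell-surface integrins, ran from 1432 to 2054 on the 5 arrays and was at most 1.35-fold below vehicle.

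The window of Tnxb (chr17:34670285-34670584, plus strand) is shown as that of the gene furthest below vehicle.
Tnxb: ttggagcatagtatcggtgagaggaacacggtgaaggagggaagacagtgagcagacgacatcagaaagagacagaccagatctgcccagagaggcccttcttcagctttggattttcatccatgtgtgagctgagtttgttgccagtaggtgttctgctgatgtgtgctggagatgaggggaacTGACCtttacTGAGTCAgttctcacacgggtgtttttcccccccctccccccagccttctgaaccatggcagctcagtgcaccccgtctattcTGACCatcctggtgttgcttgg
It holds 2 core motifs of the estrogen response element and 1 AP-1 site. Windows were at hand for 36 of the 56 genes, 41 windows in all. The full estrogen response element was in none of the 41 and in 0.07% of all 32851 windows. Its core was in 29.3% of the 41 and 40.5% of all, the GC box in 53.7% and 35.7%, the CCAAT box in 31.7% and 37.4%, the TATA box in 19.5% and 13.6%, and the AP-1 site in 4.88% and 7.81%.

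Genes that make, modify and hold the matrix, outside the 56, were followed as lists, whose counts stand against 5.04%, 4.9% and 2.71% higher and 6.64%, 5.51% and 2.81% lower among all named genes at 6, 12 and 24 h. Of 14 collagen processing genes on the array, P4ha1 and Serpinh1 were past 2-fold higher at both 6 and 12 h, Serpinh1 also at 24 h, with none lower and medians of -0.01, 0.37 and 0.45 at 6, 12 and 24 h. Serpinh1 (Hsp47), the chaperone of collagen in the endoplasmic reticulum, had 5708 in vehicle and 4976, 11987, 13687 and 12095 at 1, 6, 12 and 24 h. P4ha1, a catalytic subunit of prolyl hydroxylase, was 2.08-fold higher at 6 h, 2.29-fold at 12 h and 1.14-fold at 24 h, and its paralogue P4ha2 1.17-fold, 1.97-fold and 1.91-fold. P3h3, a prolyl hydroxylase relative, was 1.97-fold lower at 6 h and 1.37-fold higher at 24 h. Serpinh1 and P4ha1 were thus past 2-fold above vehicle at 6 h, as were Col5a1, Col6a2 and Col6a3. Col1a1, Col1a2, Col3a1 and Col5a2 were not above vehicle at that time.

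Of 43 other matrix protein genes, 6 were lower at 6 h, 5 at 12 h and 1 at 24 h, while 1, at 6 h, was higher, and the single lower gene at 24 h is 2.33% of the list, under the share of all genes. Fbln2 (fibulin 2, of basement membranes and elastic fibres) had 1439 in vehicle and 1300, 4614, 2659 and 1125 at 1, 6, 12 and 24 h, 3.21-fold higher at 6 h. Tgfbi, a secreted collagen-binding protein, was 3.67-fold lower at 6 h, 5.64-fold at 12 h and 4.39-fold at 24 h. Matn2 (matrilin 2) was 2.60-fold, 3.17-fold and 1.66-fold lower, and Mfap4, a microfibril protein, 2.56-fold, 1.53-fold and 1.08-fold. Of 16 matrix receptor genes, only 1 was past 2-fold, lower at 6 and 12 h, which is near the shares of all genes lower then. It was Ddr2, a receptor kinase for fibrillar collagen, 3.01-fold lower at 6 h and 2.60-fold at 12 h. The laminin-binding integrin genes Itga3 and Itga6 were 1.52-fold and 1.78-fold higher at 6 h, and Itgb5 was 1.78-fold lower at 12 h. Of 17 protease and inhibitor genes, 1 was higher at each of 6, 12 and 24 h, 2, 1 and 2 were lower at those times, and Mmp12 and Timp1 were higher at 1 h. The single genes higher at 6 and 12 h and lower at 12 h are near the shares of all genes. In this list the metalloproteinase inhibitor gene Timp1 was 2.11-fold, 5.21-fold and 2.82-fold higher at 6, 12 and 24 h, Mmp11, a stromal metalloproteinase, at least 7.58-fold lower at 6 h (below the floor), then 4.08-fold and 2.74-fold, the protease inhibitor gene Reck 2.56-fold lower at 6 h, and Timp3 2.23-fold lower at 24 h. The 1 cross-linking enzyme of its list on the array had a log2 ratio of 0.29 at 6 h and 0.57 at 12 h.

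**Figure D4:**
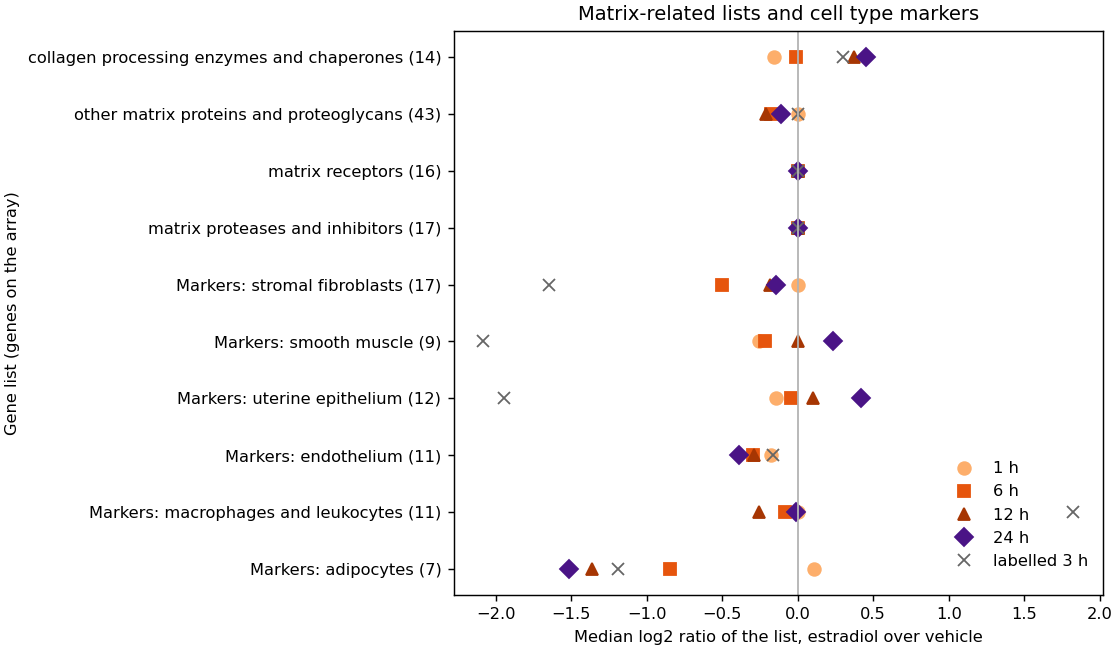
Median log2 ratio of estradiol over vehicle for 4 matrix-related lists outside the 56 genes and 6 marker lists, with the number of genes on the array in brackets. Each symbol is 1 time and crosses are the array labelled 3 h. Medians of 0 can come from genes below the floor on both arrays. Adipocyte markers lie furthest left at 24 h (-1.51), and the array labelled 3 h lies apart for stroma, smooth muscle, epithelium and leukocytes.

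Markers of the cell types that make matrix were measured on the same arrays. In whole tissue, fewer cells of a type and less RNA per cell cannot be told apart. Stromal fibroblast markers had medians of -0.50, -0.19 and -0.15 at 6, 12 and 24 h, where 3 of 17 were past 2-fold lower and 1 higher at 6 h, 2 lower at 12 h and 1 lower at 24 h, and a summed signal of 17218, 15686 and 17099 against 22150 in vehicle. Pdgfra, a growth factor receptor of fibroblasts, was 4.27-fold lower at 6 h, 3.96-fold at 12 h and 1.68-fold at 24 h, and Twist2 was 2.22-fold higher at 6 h. With 6119 units in vehicle and 1431, 1546 and 3632 at 6, 12 and 24 h, Pdgfra alone made up a large part of the difference in the stromal sum. Smooth muscle markers (9 genes) summed to 50328, 59955 and 70036 at 6, 12 and 24 h, against 52125 in vehicle, with 0, 2 and 1 of them at least 2-fold higher and 0, 1 and 0 lower. Endothelial markers (11 genes) summed to 7476, 5797 and 5796, against 7989, with 3, 3 and 2 lower and none higher. Adipocyte markers (7 genes) summed to 7414, 5312 and 4756, against 13679, with 2, 6 and 5 lower and none higher. Uterine epithelial markers (12 genes) summed to 12136, 12931 and 16888, against 12221, with 2 higher at each time and 1, 1 and 0 lower, and leukocyte markers (11 genes) to 5846, 6003 and 7048, against 8304, with none higher and 1 lower, at 24 h. The medians of the stromal and adipocyte markers (-0.50 and -0.85) were thus below vehicle at 6 h, on the array where Dcn, Lum, Bgn, Tnxb, Sparcl1 and Lama2 were lower and Col6a2, Col6a3 and Col5a1 higher, while most markers of both lists were under 2-fold. Of 8 skeletal muscle markers, 3 were at or above the floor in vehicle and at 6, 12 and 24 h, with 1 lower at 6 h, 1 higher and 1 lower at 12 h and 1 higher at 24 h. The part of these markers in the results was not tested.

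The array labelled 3 h had 13 of the 56 genes at least 2-fold higher than vehicle and 19 lower (23.2% and 33.9%), against 8.56% and 9.76% of all named genes. Among the 37 brighter genes 8 were higher and 18 lower, where the 3988 had 8.35% and 15.1%. Of the 8 fibrillar collagens 6 were higher, while 8 of the 9 laminins and 5 of the 7 basement membrane collagens were lower. Fmod had 4142 units there and 346 in vehicle (12.0-fold), Tnc 3821 and 372 (10.3-fold), and Col11a2, a collagen of cartilage fibrils, 1903 and 21.6 (at least 13.3-fold). Col11a1 was at least 4.68-fold higher, and Col11a2 and Col8a1 were above the floor on this array alone. Sparc was 5.81-fold, Col1a2 4.65-fold and Col5a2 4.33-fold higher. On the lower side, Sparcl1 was 14.9-fold, Tnxb 8.03-fold, Lama5 4.96-fold and Col18a1 4.17-fold lower, Col17a1 at least 6.12-fold and Lama3 at least 4.42-fold. Collagen VI was not high: Col6a3 had 5541, Col6a2 3663 and Col6a1 5151 units there. Of 4 bone and cartilage markers, Ibsp and Acan had 3715 and 290 units on this array and at most 28.2 and 83.5 on the others. The other markers of that list, Matn1 and Matn3, were below the floor on it, at 4.0 and 21.2 units. The skeletal muscle kinase gene Ckm had 3341 units, against at most 57.9 elsewhere. The values of this array thus cannot be placed between those of 1 and 6 h. The part of these markers in the matrix values was not tested.

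Where a gene called at 2-fold had a further probe set at or above the floor, it lay on the same side of vehicle by 1.5-fold or more in 10 of 12 cases over 1, 6, 12 and 24 h and on the opposite side in none. The 2 cases short of this were Col1a1 and Col1a2 at 24 h. Of the 10, 1 is Lox at 6 h. Its second probe set was above the floor in vehicle alone, so its log2 ratio is the same bound, -0.77, at every time. On the array labelled 3 h, 9 of 13 cases were on the same side and 1, Col1a2, on the opposite one. Probe sets of 1 array share its RNA, so they are not replicates.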

How the data were processed

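Total RNA from pooled uteri (20 µg) was labelled and hybridised to U74Av2 arrays, per the labels' protocols. The deposited values are linear signal intensity from the authors' MAS5 software, per the submitters' processing notes. Its version, background settings and detection calls are not given in the sources used here. From the values, the authors had scaled each array to a common trimmed mean (500.2 to 500.3 after removing 2% at each end). Of 12488 probe sets, 66 controls were left out. The array annotation gave 1 symbol for 10833 of the 12422 kept, several for 396 and none for 1193, and symbols were updated through gene identifiers (10817 matched) in RefSeq, GRCm38.p6.

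Arrays were rescaled to the same 2% trimmed mean without controls, values under the 40th percentile (142.8) were raised to that floor, and log2 ratios against vehicle were taken in Python 3.11.15 with numpy 2.4.6 and pandas 2.3.3. Where 1 of the 2 arrays was under the floor the fold is a bound ("at least"). With 1 array per group there was no test, and a fixed 2-fold was used to count. The calculation was tested on simulated data. The alternatives were another scaling (median, quantile), another floor, all probe sets of a gene, another base and another minimum fold. Named genes are 28 reference members, per time the 6 highest and 6 lowest members reaching 352.65 units on 1 of the 2 arrays, and up to 4 genes per outside list. A few more members are named for counts or paired with these, chosen after their values were seen. Members, lists and alternatives were chosen with earlier results of these data known. Promoter sequences are from RefSeq, GRCm38.p6.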

Additional observations from a re-analysis of the deposited data

Results flagged for a closer look

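Some members were at least 2-fold higher than vehicle at one time and at least 2-fold lower at another, a difference that was not tested since each time has 1 array. Among the times other than the array labelled 3 h this holds for Vcan, with log2 ratios of -1.05 at 6 h, where it was below the floor, and 1.23 at 12 h. The other cases turn on the array labelled 3 h, which went against its label. Bgn had 1.09 there and -1.35 at 6 h, with 0.31 there on its second probe set. Col15a1 had -1.24 there and 1.30 at 24 h. Eln had -1.40 there and 1.27 at 6 h, and -0.70 there with the median of its probe sets. Fmod had 3.58 there and -1.28 at 1 h, a bound set by the floor.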

How the results depend on the processing

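No paired analysis was possible because each group has 1 array. For the same reason no array could be left out of a group. Of the 36 calls at 2-fold among named members at 1, 6, 12 and 24 h, 36 were kept with arrays scaled to the same median and with the floor at the 20th percentile, 35 with quantile normalization (without Col3a1 at 24 h), 31 with the median of all probe sets and 30 with the floor at the 60th percentile, which lost Fmod and Vcan. With the mean of vehicle and 1 h as the base, 31 of 35 were kept. The calls of Col14a1 and Lama4 are outside the 36, and those of Col14a1 were lost with arrays scaled to the same median. Leaving the array labelled 3 h out of the floor and the choice of probe set, an alternative added after seeing the data, kept all 36. Without probe sets whose suffix marks related transcripts (also added later), Tnxb could not be read and 33 of 33 calls were kept. Of 28 calls on the array labelled 3 h, 23 were kept with the median of all probe sets (lost: Bgn, Eln, Col1a1, Col1a2, Lamc1), 24 with the floor at the 60th percentile, and 27 with quantile normalization. No called value of a named member changed sign under the alternatives that give 1 value per gene. Between single probe sets, Col1a2 on the array labelled 3 h did, with 2.22 on the brightest and -1.02 on the other.

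Counts that moved by over 1.5 times and medians that moved by over 0.1 were as follows. A floor at the 20th percentile left 2 genes higher at 1 h (3.57%, against 3.13% of all genes), and medians of -0.50 on the array labelled 3 h and 0.17 at 24 h. A floor at the 60th percentile left 0 lower at 1 h and medians of 0.00 at 3 and 6 h. Taking a gene as the median over its probe sets left 0 lower at 1 h. Counting each of the 81 probe sets gave 7 higher at 6 h (8.64%, against 4.55% of all), 10 higher at 12 h (12.3%, against 4.49%) and medians of 0.00 at 3 h and -0.044 at 6 h. With the mean of vehicle and 1 h as the base the 6 h median was -0.016. A minimum of 1.5-fold gave 7 higher at 6 h (12.5%, against 11.4% of all genes), 13 higher and 12 lower at 12 h (23.2% and 21.4%, against 11.8% and 13.6%), and 5 lower at 24 h (8.93%, against 10.01%), so the 6 h higher and 24 h lower shares are near those of all genes. Without probe sets whose suffix marks related transcripts (added later) the 3 h median was -0.11. Among the 37 matrix genes with a mean signal at the 60th percentile (added later), 0 were lower at 1 h, 8 higher at 3 h, and the medians at 3, 6 and 24 h were -0.95, -0.27 and 0.37. Smaller shifts of a median include 6 h with arrays scaled to the same median (-0.05) and without the suffixed probe sets (-0.09), and 24 h with the mean base (0.08). The floor and the brightness filter set by construction how many dim genes can be called. The causes of the other shifts were not tested. On the array labelled 3 h the median log2 ratio of genes measured on both arrays was -0.15, and it was -0.03 with arrays scaled to the same median.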
